A study of Homo sapiens with 30 samples.

Results

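The androgen response of LNCaP cells whose mTOR had been replaced by the wild-type protein was measured in 6 of the 30 RNA-seq libraries of the study, 3 treated with R1881 and 3 with vehicle, across all genes of the read count table. LNCaP is an androgen-dependent prostate cancer line of human origin, long established in culture. All cells carried an shRNA against mTOR, and wild-type mTOR (WT) was supplied through an inducible system. The cells first spent 48 h without androgen, in 2% serum stripped with charcoal. They then received 10 nM R1881, a synthetic androgen, or 0.1% ethanol as vehicle for 24 h. For comparison, the same pair of treatments was read in cells rescued with mTOR carrying a nuclear export signal (NES), with mTOR carrying a nuclear localization signal (NLS), or with an empty vector (EV), again with 3 libraries per group. Nothing in the labels says that the 3 libraries of a group came from separate cultures, so the p-values may reflect technical spread alone.

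Androgen acts through the androgen receptor, a transcription factor of the nuclear receptor family that is held by HSP90 and its co-chaperones until hormone binds. The hormone-bound receptor enters the nucleus and binds DNA elements built of a pair of 6-letter arms, which in prostate cells control genes of secretion, lipid synthesis and growth. mTOR is the kinase at the core of the mTORC1 and mTORC2 complexes, which tie protein synthesis, lipid synthesis and autophagy to nutrients and growth factors.

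The 6 libraries held 23.9 to 28.7 M counts, within a range of 21.4 to 61.8 M over the whole study, and levels are given as CPM, counts per M counts after TMM scaling. Mitochondrially encoded genes took 5.09 to 6.63% of the counts under R1881 and 5.65 to 8.57% under vehicle. R1881 library 1 stood apart from the other R1881 libraries. On the second principal component, which held 27.2% of the variance of the 6 libraries, it lay at 36.0 while libraries 2 and 3 lay at -11.5 and -11.2. Its counts differed from theirs by a chi-square per degree of freedom of 77.8 and 85.6, against 12.7 between libraries 2 and 3 and 24.0 to 31.2 among the vehicle libraries. Counts of called members of a gene list are therefore also given without that library where they then moved by 1.5 times or more, and likewise with the replicate block, a fit that is described with the total counts.

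MTOR itself had 1515, 1813 and 1480 CPM in WT cells under R1881, against 2004, 1995 and 1521 CPM under vehicle. The WT groups overlapped, and the difference was -0.20 ± 0.32 on the log2 scale (± SE, adjusted p = 0.845). In EV cells, which show what the knockdown left, MTOR had 55.4 to 73.9 CPM under R1881 and 20.3 to 29.8 CPM under vehicle. It had 3183 to 5865 CPM under R1881 and 4011 to 7593 CPM under vehicle in NES cells, above all WT libraries, and 637 to 1340 CPM under R1881 and 596 to 1123 CPM under vehicle in NLS cells, below all of them. The NES and NLS cells thus differed from WT cells in the level of MTOR as well as in the signal it carried, and the part of that level in the comparisons of their responses was not tested.

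R1881 changed 1186 of the 18296 genes tested (6.48%), at a Benjamini-Hochberg adjusted p under 0.05 in edgeR's quasi-likelihood test. Of these, 635 were higher (3.47%) and 551 were lower (3.01%). The protein-coding genes gave 537 higher and 454 lower calls, and other classes of gene gave 98 and 97. The median log2 change was 1.39 among genes called higher, -1.36 among genes called lower and 0.01 over all genes tested. The log2 change was at least 2 in 219 called genes and at most -2 in 154. In bulk RNA, a change in the makeup of the cells and a change of RNA per cell cannot be told apart. The libraries of the groups did not overlap for 1177 of the called genes, and for 23.8% of all genes tested. Samples with the same replicate number deviated together, and a fit with the replicate number as a block called 1099 genes higher (6.01%) and 1004 lower (5.49%). Without R1881 library 1, of 18900 genes that could then be tested, 579 were higher (3.06%) and 447 lower (2.37%).

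**Figure D1:**
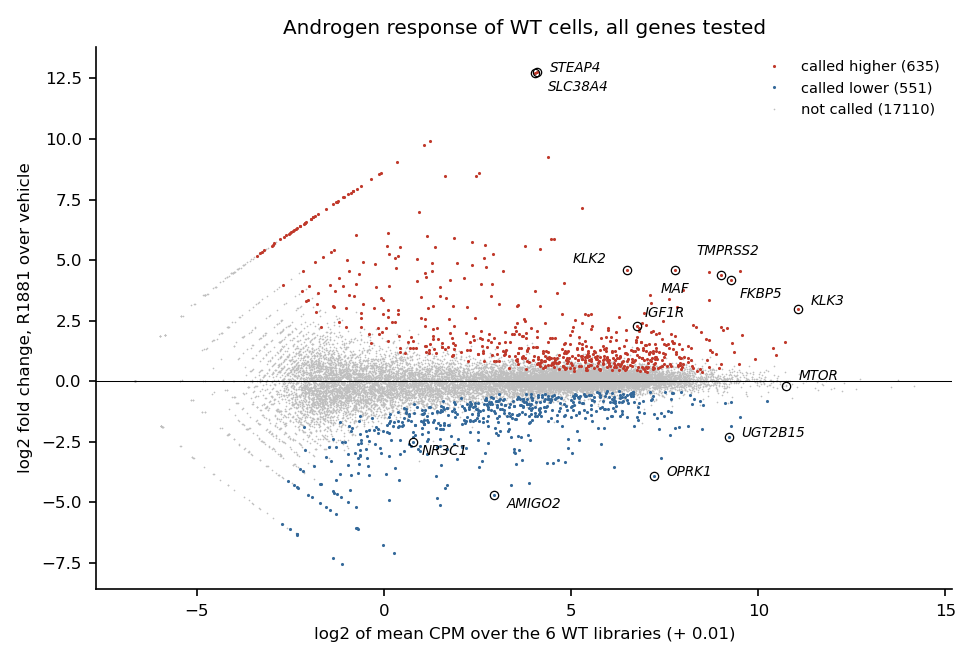
The log2 fold change of R1881 over vehicle in WT cells is plotted against the log2 mean CPM of the 6 libraries (plus 0.01), 1 point per gene tested, with genes called higher in red, called lower in blue and not called in grey, and circled genes named. The 635 higher and 551 lower calls lie on both sides of an uncalled mass near 0, with KLK3 among the abundant risers and MTOR among the uncalled genes; the straight rays at low CPM are genes with no or few counts in a group, whose fold changes depend on the prior count.

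Secreted and surface proteins of the prostate, with kallikreins among them, were higher under R1881. KLK3, which encodes prostate-specific antigen, a protease secreted into semen, had 3165, 4261 and 3924 CPM under R1881, against 417, 589 and 442 CPM under vehicle. R1881 library 1 was the lowest of its group and still far above each vehicle library, and the log2 change was 2.97 ± 0.33 (adjusted p = 5.422e-07). KLK2, a related protease that can activate the KLK3 proenzyme, had 170, 167 and 179 CPM under R1881, against 7.38, 7.33 and 6.44 CPM under vehicle. The libraries of each group lay close together, and the log2 change was 4.61 ± 0.28 (adjusted p = 1.303e-11). KLK4, a further protease of the cluster, had 117, 194 and 197 CPM under R1881, against 38.3, 52.7 and 51.6 CPM under vehicle, a log2 change of 1.83 ± 0.40 (adjusted p = 0.003743). KLK15, which lies on the other side of KLK3, had 2.21, 3.06 and 3.10 CPM under R1881, against 2.77, 3.16 and 3.38 CPM under vehicle, overlapping groups with a log2 difference of -0.15 ± 0.35 (adjusted p = 0.898). The genes lie along chromosome 19 (hg38): KLK15 at 50825289 to 50837213, KLK3 at 50854915 to 50860764, KLK2 at 50861568 to 50880567 and KLK4 at 50906352 to 50910738. KLK2 and KLK3 are similar in sequence, and how reads that match several places were counted is not given in the sources used here, so the split of reads between them is uncertain.

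The promoters of KLK3 and KLK2 are shown for the letters in them that come closest to the consensus of the receptor's element. The 250 bases before the RefSeq start of each gene (GRCh38.p14, plus strand) are printed below, with the best match to the element in capitals. The letters searched on both strands were AGAACA, any 3 bases, then TGTTCT, which count as 12 letters.
KLK3 (chr19:50854665-50854914): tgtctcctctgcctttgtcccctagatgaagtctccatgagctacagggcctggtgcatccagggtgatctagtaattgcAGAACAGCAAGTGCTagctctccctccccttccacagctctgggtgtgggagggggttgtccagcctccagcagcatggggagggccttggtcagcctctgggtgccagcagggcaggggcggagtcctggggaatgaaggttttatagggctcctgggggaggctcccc
KLK2 (chr19:50873189-50873438): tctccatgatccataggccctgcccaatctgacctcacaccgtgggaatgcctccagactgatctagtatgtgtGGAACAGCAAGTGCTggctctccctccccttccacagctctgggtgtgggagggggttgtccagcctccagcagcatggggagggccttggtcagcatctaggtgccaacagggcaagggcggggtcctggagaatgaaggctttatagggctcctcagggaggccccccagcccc
The KLK3 match began 170 bases before the start and agreed in 10 of the 12 letters, and the KLK2 match began 176 bases before its start and agreed in 9. The RefSeq start used for KLK2 lies inside the longer gene model of the count table. Among called genes with a matched promoter, 12.4% of 426 higher and 13.0% of 370 lower genes held a match of at least 9 letters within 250 bases before to 50 after the start, against 8.92% of the 11303 tested genes with a promoter. The share was thus no higher among genes called higher than among genes called lower. At 10 letters or more the shares were 1.88%, 1.62% and 1%. A match is a description of letters and no measure of binding.

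Matches of 10 letters or more occurred in genes that rose and in genes that fell, and 6 of them are shown beside the kallikreins, with letters that match the element in capitals and the middle 3 bases in lower case.
KLK3 (chr19:50854745-50854759, plus strand): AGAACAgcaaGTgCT
KLK2 (chr19:50873263-50873277, plus strand): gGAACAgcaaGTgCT
FAM107A (chr3:58587221-58587235, minus strand): AGgACActgTGTTCT
PMEPA1 (chr20:57710801-57710815, minus strand): tGAAgAatgTGTTCT
NFIB (chr9:14306971-14306985, minus strand): gGAgCAgatTGTTCT
LINC00844 (chr10:58999459-58999473, plus strand): AGAACAcacTGTcCc
GRB10 (chr7:50782992-50783006, minus strand): gGAACAagggGTTCT
BDNF (chr11:27720872-27720886, minus strand): AGAAgAaaagGTTCT
The first 6 belong to genes that were higher, and those of GRB10 and BDNF to genes that were lower under R1881. FAM107A held 11 letters and changed by 3.10 ± 0.94 on the log2 scale (adjusted p = 0.0471, and 0.184 without vehicle library 2). Its call was lost with 5 of the 6 libraries left out in turn. BDNF, a neurotrophin, held 10 letters and changed by -6.05 ± 0.95 on that scale (adjusted p = 0.0003233), with 0, 0 and 0.0356 CPM under R1881 and 1.84, 0.897 and 0.746 CPM under vehicle.

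Over the whole list of secreted and surface prostate genes, 11 of 21 tested members were higher and 3 lower (52.4% and 14.3%). Over all genes the shares were 3.47% and 3.01%. The median log2 change of the list was 1.57, against 0.01 over all genes. Without R1881 library 1 the counts were 11 and 2. TMPRSS2, a membrane serine protease, had 820, 1244 and 895.5 CPM under R1881, against 46.4, 61.2 and 35.9 CPM under vehicle, and changed by 4.37 ± 0.23 on the log2 scale (adjusted p = 4.517e-13). SLC45A3, the membrane protein called prostein, had 612, 917 and 833 CPM under R1881, against 36.7, 31.2 and 37.2 CPM under vehicle, a log2 change of 4.49 ± 0.20 (adjusted p = 1.704e-14). For both genes the groups were separated by a wide gap, with R1881 library 1 the lowest of its group. STEAP4, a metalloreductase of the cell surface, had 48.9, 29.1 and 24.1 CPM under R1881, against 0 counts in all vehicle libraries. Set against 3 counts over the vehicle group, the lowest R1881 library was at least 608-fold higher. TRPM8, the cold-sensing cation channel, had 44.1, 37.3 and 24.9 CPM under R1881, against 1.73, 0.351 and 0.314 CPM under vehicle, and CHRNA2, a nicotinic acetylcholine receptor subunit, had 35.5, 55.6 and 46.1 CPM under R1881, against 0.553, 1.01 and 0.746 CPM under vehicle. Their log2 changes were 5.45 ± 0.45 and 5.88 ± 0.35 (adjusted p = 2.867e-09 and 9.405e-12).

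The other members of that list ran both ways. ORM1 and ORM2, which encode orosomucoids of blood plasma and are near copies of each other, changed by 4.31 ± 0.59 and 5.91 ± 0.51 on the log2 scale. SORD, the sorbitol dehydrogenase that supplies fructose to semen, changed by 1.57 ± 0.21. FOLH1, which encodes prostate-specific membrane antigen, had 880, 892 and 796 CPM under R1881, against 1558, 1579 and 1444 CPM under vehicle, and fell by 0.84 on the log2 scale (SE 0.16, adjusted p = 0.001178). ACPP, the prostatic acid phosphatase, changed by -0.92 ± 0.23 (adjusted p = 0.01011, and 0.0745 without R1881 library 3), and TSPAN1 by -0.52 ± 0.16 (adjusted p = 0.04396, and 0.257 without vehicle library 1). The TSPAN1 call was lost with 5 of the 6 libraries left out in turn. STEAP1 and STEAP2, relatives of STEAP4, had log2 differences of -0.27 ± 0.30 and -0.23 ± 0.31 that did not pass the test (adjusted p = 0.745 and 0.813).

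The changes with the largest folds spread over transporters, receptors, transcription factors and adhesion molecules. Among the 15 protein-coding genes with the highest folds were SLC38A4, an amino acid transporter, and SLC2A3, the glucose transporter GLUT3. SLC38A4 had 46.7, 25.1 and 27.0 CPM under R1881 against 0 counts under vehicle, at least 634-fold higher. SLC2A3 had 14.2, 8.28 and 10.4 CPM under R1881, against 0, 0.0780 and 0 CPM under vehicle, where the 2 vehicle counts give a ratio of 408 with a 95% counting interval of 113 to 3380. CCDC141 had 63.3, 29.0 and 32.8 CPM under R1881 and 0, 0 and 0.196 CPM under vehicle. AKAP12, a scaffold of protein kinase A, had 16.2, 5.69 and 7.98 CPM under R1881 and 0.148, 0.234 and 0.157 CPM under vehicle, and F5, coagulation factor V, had 16.0, 9.66 and 12.4 CPM under R1881 and 0.480, 0 and 0.275 CPM under vehicle. In each of these genes R1881 library 1 was the highest of its group. None overlapped with vehicle, which the choice of genes by fold required. PTGER4, a receptor for prostaglandin E2, rose by 4.82 ± 0.47 and HPGD, the enzyme that inactivates prostaglandins, by 5.25 ± 0.63 on the log2 scale (adjusted p = 4.387e-08 and 1.356e-06).

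Genes with the strongest falls included a receptor, an adhesion protein and enzymes of glycan handling. OPRK1, the kappa opioid receptor, had 18.8, 18.97 and 17.2 CPM under R1881, against 291, 284 and 265 CPM under vehicle, a log2 change of -3.93 ± 0.34 (adjusted p = 7.486e-09). LRRN1, a leucine-rich repeat membrane protein, had 30.8, 38.8 and 33.3 CPM under R1881, against 314, 308 and 295 CPM under vehicle. AMIGO2, an adhesion protein with leucine-rich repeats, had 0.660, 0.431 and 0.570 CPM under R1881, against 16.9, 13.7 and 13.6 CPM under vehicle, the lowest log2 change of the protein-coding genes named by fold (-4.71 ± 0.39, adjusted p = 2.859e-09). MAN1A1, a Golgi mannosidase, had 1.28, 1.47 and 1.78 CPM under R1881, against 43.9, 16.96 and 22.6 CPM under vehicle. SI, the sucrase-isomaltase of the gut brush border, had 1.36, 1.29 and 0.392 CPM under R1881, against 23.2, 20.5 and 16.1 CPM under vehicle. In these genes every R1881 library lay below every vehicle library, which the choice of genes by fold required. CAMK2N1, an inhibitor of the calcium kinase CaMKII, fell by 3.25 on the log2 scale, TNFSF15, a cytokine, by 3.27, COL5A2, a collagen chain, by 3.41, and MYB, a transcription factor, by 2.98.

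**Figure D2:**
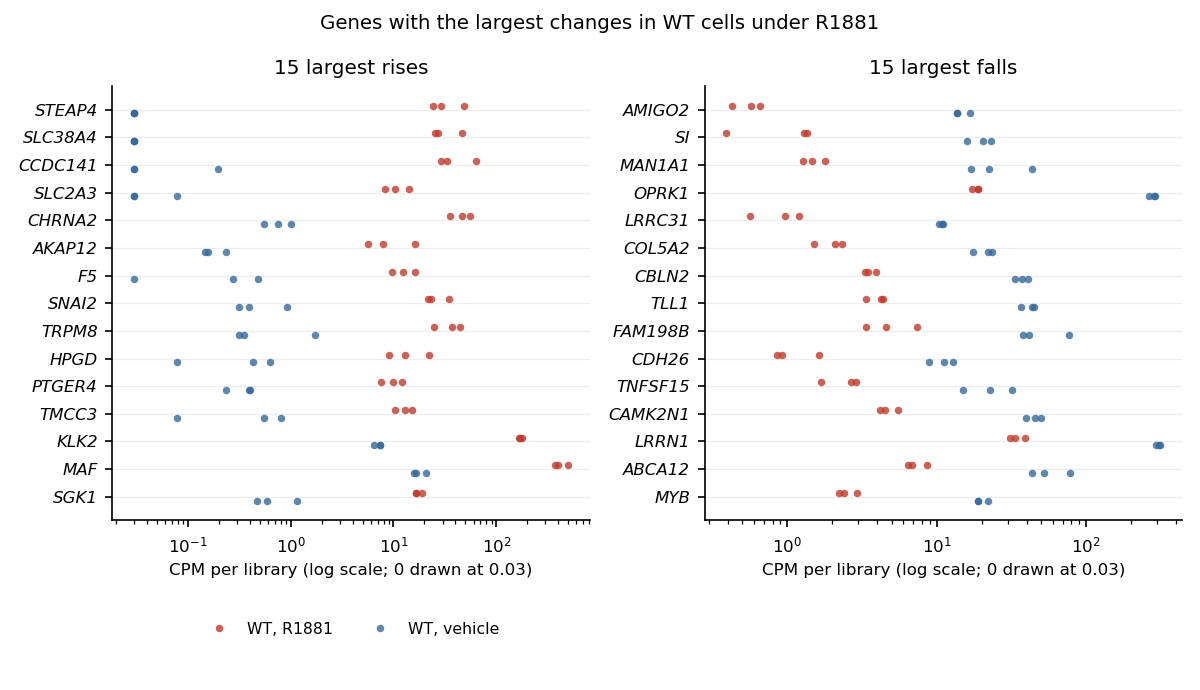
CPM in each library (log axis, 0 drawn at 0.03) of the 15 protein-coding genes with the highest and the 15 with the lowest log2 fold changes, with WT libraries under R1881 in red above those under vehicle in blue. The colours do not overlap for any gene shown, which the choice of genes required; STEAP4 and SLC38A4 sit at 0 in all vehicle libraries, and OPRK1 and LRRN1 are the most abundant of the genes that fell.

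In transcript abundance per length the largest rises included secretory and lipid genes. KLK3 averaged 795.5 ± 97.2 FPKM under R1881 and 103 ± 20.1 FPKM under vehicle (SD, n = 3 each). ODC1, the first enzyme of polyamine synthesis, averaged 417 ± 80.6 FPKM under R1881 and 220.5 ± 7.45 FPKM under vehicle. PLPP1, a lipid phosphatase, DEGS1, a ceramide desaturase, UAP1, which makes the sugar donor UDP-N-acetylglucosamine, and SPON2, a secreted matrix protein, were also among the 10 largest rises, as were SLC45A3 and TMPRSS2. The largest falls in FPKM were those of UGT2B15 and UGT2B17, described with androgen metabolism. FOLH1 averaged 219 ± 16.4 FPKM under R1881 and 395 ± 19.2 FPKM under vehicle, DDC, which makes dopamine and serotonin from their precursors, 31.8 ± 5.03 FPKM under R1881 and 118 ± 13.5 FPKM under vehicle, and GRB10, an adaptor that restrains insulin receptor signalling, 27.2 ± 2.62 FPKM under R1881 and 97.7 ± 5.29 FPKM under vehicle. NDUFB4, a subunit of respiratory complex I, had 127 ± 10.6 FPKM under R1881 and 254 ± 26.7 FPKM under vehicle, and its call (adjusted p = 0.01459) was lost without R1881 library 1 (adjusted p = 0.0694).

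**Figure D3:**
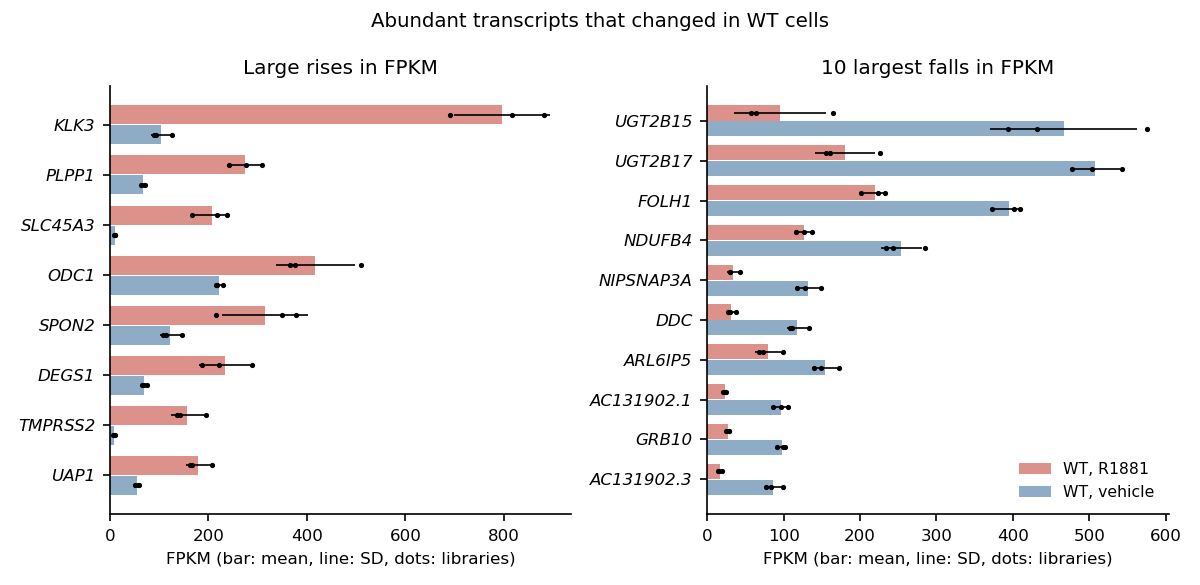
Mean FPKM (bars, with SD as lines and each library as a dot) of 8 of the 10 called genes with the largest rise in mean FPKM and of the 10 with the largest fall, WT cells under R1881 in red above vehicle in blue. KLK3 reaches 795.5 FPKM under R1881 and 103 under vehicle, and the bars of UGT2B15 have the widest spread among the genes that fell.

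The transcription factors of androgen signalling and prostate identity gave 13 higher and 4 lower calls among 35 tested members (37.1% and 11.4%). Over all genes the shares were 3.47% and 3.01%. The median log2 change of the 35 was 0.19. MAF, a basic leucine zipper factor, had 497, 372 and 399 CPM under R1881, against 20.6, 16.0 and 16.5 CPM under vehicle. RUNX1 rose by 3.87 ± 0.45, KLF5 by 3.11 ± 0.35, ZBTB16, also called PLZF, by 2.76 ± 0.39, the elongation factor ELL2 by 2.65 ± 0.27 and the prostate Ets factor SPDEF by 2.02 ± 0.33 on the log2 scale, each with an adjusted p of 0.0001575 or less. KLF4, HES6, GRHL2, ZBTB10, CREB3L4 and NFIB rose by 1.01 to 1.69. The calls of NFIB (adjusted p = 0.0553 without R1881 library 1) and CREB3L4 (0.139 without vehicle library 1) depended on single libraries. SNAI2, a factor outside the list known from epithelial to mesenchymal transition, had 34.9, 23.1 and 21.6 CPM under R1881 and 0.922, 0.312 and 0.393 CPM under vehicle.

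The 4 factors that fell included a pair of steroid receptors at low levels. PGR, the progesterone receptor, had 0, 0.172 and 0.0356 CPM under R1881, against 1.84, 2.46 and 2.00 CPM under vehicle (adjusted p = 0.0004227). NR3C1, the glucocorticoid receptor, had 0.427, 0.733 and 0.356 CPM under R1881, against 3.62, 3.08 and 2.04 CPM under vehicle, a log2 change of -2.53 ± 0.57 (adjusted p = 0.004922). ELF3 changed by -0.93 ± 0.21 and SOX9 by -0.98 ± 0.24, the SOX9 call being lost without vehicle library 2 (adjusted p = 0.0910). The receptor's pioneer and partner factors FOXA1 and HOXB13 had log2 differences of -0.09 ± 0.13 and -0.35 ± 0.19 that did not pass (adjusted p = 0.836 and 0.367), and GATA2 had -0.76 ± 0.27 (adjusted p = 0.107, and 0.02505 with the replicate block). With the replicate block the list gave 15 higher and 7 lower calls.

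FKBP5, an HSP90 co-chaperone that binds steroid receptors, was the only 1 of 13 tested co-chaperones that passed the test. It had 1414, 1083 and 1003 CPM under R1881, against 64.3, 63.3 and 63.4 CPM under vehicle, and changed by 4.20 ± 0.26 on the log2 scale (adjusted p = 1.478e-11). For 16 genes that the glucocorticoid receptor also controls, the median log2 change was 1.22. Of them 7 were higher and none lower (43.8% and 0%, against 3.47% and 3.01% over all genes). Besides FKBP5 these were SGK1, a kinase related to AKT, with 16.7, 19.1 and 16.5 CPM under R1881 and 1.14, 0.468 and 0.589 CPM under vehicle, and ERRFI1, an inhibitor of the EGF receptor, ZBTB16, the clock gene PER1, TIPARP and NFKBIA, with rises of 1.35 to 2.76. FKBP5 and ZBTB16 each stand in more than 1 list.

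The list of androgen metabolism gave 3 higher and 2 lower calls among 18 tested members (16.7% and 11.1%, against 3.47% and 3.01% over all genes). The counts were 4 and 3 with the replicate block and 2 and 2 without R1881 library 1. The higher calls were those of UGT2B28, HSD17B4 and HPGD, which is given above as an enzyme of prostaglandins. Without R1881 library 1 the higher calls left were HPGD and UGT2B28. UGT2B15 and UGT2B17, which inactivate androgens by adding glucuronic acid, lie at chromosome 4, 68646630 to 68670628 and 68537184 to 68568527 (hg38). UGT2B15 had 338, 124 and 138 CPM under R1881, against 1212, 903 and 827 CPM under vehicle, a log2 change of -2.30 ± 0.48 (adjusted p = 0.002209). UGT2B17 had 464, 348 and 335 CPM under R1881, against 1061, 1137 and 1005 CPM under vehicle, a log2 change of -1.48 ± 0.26 (adjusted p = 0.0003831). Neither gene overlapped between the groups. Their neighbour UGT2B28 moved the other way, with 54.9, 12.9 and 23.5 CPM under R1881, against 2.07, 1.87 and 2.94 CPM under vehicle (log2 change 3.73 ± 0.62, adjusted p = 0.0001605). UGT2B11 had 102, 23.2 and 44.0 CPM under R1881 and 19.95, 15.9 and 15.03 CPM under vehicle, and did not pass (adjusted p = 0.127), but passed with the replicate block (adjusted p = 0.03339). R1881 library 1 was the highest of its group for all 4, and the UGT2B genes are near copies of each other, so the split of reads among them is uncertain. HSD17B4 changed by 0.60 ± 0.15, a call lost without R1881 library 1 (adjusted p = 0.0734), while SRD5A1 and SRD5A3, which carry steroid 5-alpha-reductase names, had log2 differences of 0.27 ± 0.19 and -0.07 ± 0.16 (adjusted p = 0.551 and 0.905).

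A list drawn up as androgen-repressed genes gave 12 lower and 3 higher calls among 23 tested members (52.2% and 13.0%). Over all genes 3.01% were lower and 3.47% higher. The median log2 change of the list was -1.48. That each member is lowered by androgen in these cells was not established beforehand. Without R1881 library 1 there were 11 lower and 2 higher calls. The lower members included OPRK1, LRRN1, CAMK2N1, SI, DDC, UGT2B15, UGT2B17 and the chemokine receptor ACKR3, which had 84.2, 75.9 and 81.9 CPM under R1881 and 254.5, 231 and 212 CPM under vehicle. TRIB1, a pseudokinase, changed by -1.41 ± 0.16 and PRKD1, a protein kinase, by -0.80 ± 0.16. The 3 higher members were GREB1, CXCR4 and GUCY1A1, a subunit of soluble guanylate cyclase whose call was lost without vehicle library 2 (adjusted p = 0.0584). GREB1, a nuclear receptor cofactor, had 93.4, 112 and 105 CPM under R1881, against 25.2, 24.8 and 22.1 CPM under vehicle. CXCR4, the receptor for the chemokine CXCL12, had 3.53, 1.04 and 1.78 CPM under R1881, against 0, 0.0780 and 0 CPM under vehicle.

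**Figure D4:**
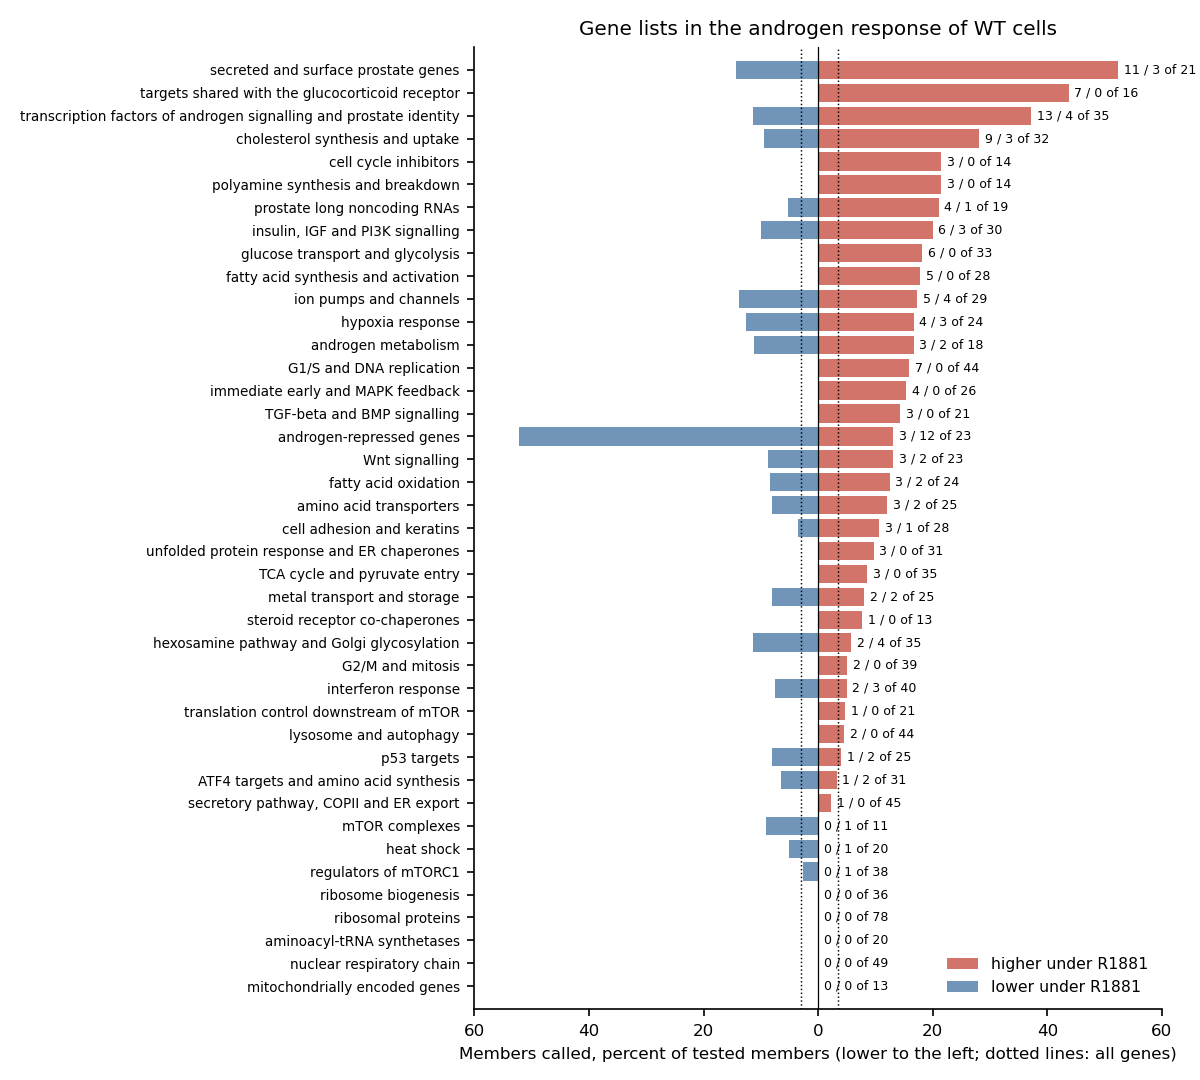
The percent of tested members called higher (red, to the right) and lower (blue, to the left) under R1881 in each of the 41 gene lists, with the numbers higher and lower of those tested beside each bar, and dotted lines at the shares over all genes (3.47% higher, 3.01% lower). Secreted and surface genes have the longest bar to the right and androgen-repressed genes the longest to the left. The lists of ribosomal proteins, ribosome biogenesis, tRNA synthetases and the respiratory chain have none, though NDUFB4, a called subunit of complex I, is outside the respiratory chain list.

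Cholesterol synthesis and uptake gave 9 higher and 3 lower calls among 32 tested members (28.1% and 9.38%, against 3.47% and 3.01% over all genes). Of the 32 fold changes, 27 were above 0. That lean was not tested against genes at large, and 39 of 49 nuclear respiratory chain genes, none of them called, also lay above 0. With the replicate block 19 were higher and 4 lower, and without R1881 library 1 the counts were 6 and 3. SCAP, the escort protein of the sterol-sensing transcription factors, had 276, 381 and 390 CPM under R1881, against 124.5, 122 and 111 CPM under vehicle (log2 change 1.55 ± 0.17). The enzymes LSS and FDFT1 rose by 0.92 ± 0.20 and 0.89 ± 0.19. The enzyme SQLE and the sterol sensor INSIG1, at 0.90 ± 0.24 and 0.96 ± 0.29, lost their calls without R1881 library 1 (adjusted p = 0.104 for SQLE and 0.195 for INSIG1), and in all with 5 of the 6 libraries left out in turn. The members that fell were the sterol exporters ABCA1 and ABCG1 and the sensor INSIG2. ABCA1 had 0.272, 0.172 and 0.356 CPM under R1881, against 6.60, 5.65 and 5.42 CPM under vehicle, a log2 change of -4.42 ± 0.67 (adjusted p = 5.233e-05).

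Fatty acid synthesis and activation gave 5 higher and no lower calls among 28 tested members (17.9% and 0%, against 3.47% and 3.01% over all genes). With the replicate block 8 were higher and 1 lower. ACSL3, which activates long-chain fatty acids, had 1163, 691 and 698 CPM under R1881, against 215, 164 and 157 CPM under vehicle (log2 change 2.25 ± 0.37). The elongases ELOVL7 and ELOVL5 rose by 2.42 ± 0.32 and 1.11 ± 0.24. FASN, the fatty acid synthase, had 1163, 2402 and 2218 CPM under R1881, against 892.5, 948.5 and 888 CPM under vehicle (log2 change 1.08 ± 0.20, adjusted p = 0.0005149). ACSL3 was highest and FASN lowest in R1881 library 1. Fatty acid oxidation had 3 higher and 2 lower calls among 24 (12.5% and 8.33%), none beyond 1 on the log2 scale. Counts as small as these are no result about a list. With the block the counts were 5 and 3. Without R1881 library 1 they were 1 and 2, as HSD17B4 and SLC25A20, the carnitine carrier, lost their calls (adjusted p = 0.0734 and 0.0758). SREBF1 and SREBF2, the sterol-sensing factors themselves, had log2 differences of 0.11 ± 0.23 and 0.40 ± 0.25 (adjusted p = 0.888 and 0.476), and SREBF2 passed with the replicate block (adjusted p = 0.03612).

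Glucose transport and glycolysis gave 6 higher and no lower calls among 33 tested members (18.2% and 0%, against 3.47% and 3.01% over all genes). CAMKK2, a kinase upstream of AMPK, had 284, 383 and 287 CPM under R1881, against 105.5, 118 and 98.2 CPM under vehicle (log2 change 1.57 ± 0.15, adjusted p = 3.129e-08). The hexokinase HK2 rose by 0.72 ± 0.15 and the transporter SLC2A12 by 1.35 ± 0.30. HK1 and SLC2A1, at 0.65 ± 0.16 and 0.75 ± 0.21, lost their calls without vehicle library 1 (adjusted p = 0.0737 and 0.105), and in all with 3 and 5 of the 6 libraries left out in turn. MPC2, a subunit of the mitochondrial pyruvate carrier, was among 3 higher members of 35 (8.57%) in the TCA cycle list. It had 354, 305 and 281 CPM under R1881, against 90.4, 102 and 101 CPM under vehicle. None of the 49 nuclear respiratory chain genes and none of the 13 mitochondrially encoded genes was called by edgeR or by DESeq2, and none had an unadjusted p under 0.05. NDUFB4 is no member of that list.

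The polyamine list had 3 higher calls among 14 (21.4%), beside shares of 3.47% higher and 3.01% lower over all genes. SMS, spermine synthase, had 525, 336 and 360 CPM under R1881, against 143, 152 and 152 CPM under vehicle, and ODC1 and SAT1, the acetyltransferase of polyamine breakdown, rose by 0.93 ± 0.21 and 1.26 ± 0.27. Golgi glycosylation and the hexosamine pathway ran both ways, with 2 higher and 4 lower calls among 35 (5.71% and 11.4%), and 6 of each with the replicate block. ST6GALNAC1, a sialyltransferase that makes the sialyl-Tn antigen, had 48.8, 47.4 and 62.1 CPM under R1881, against 3.28, 3.28 and 2.94 CPM under vehicle, and UAP1 rose by 1.70 ± 0.15. MAN1A1, ST3GAL1, FUT8 and GALNT10 fell by 0.83 to 4.20 on the log2 scale, GALNT10 with an adjusted p of 0.114 without R1881 library 3.

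The secretory pathway and the unfolded protein response depended on the fit. The secretory list had 1 higher call among 45 tested members, or 2.22% (SEC11C, a subunit of the signal peptidase, log2 change 0.57 ± 0.15). It had none without R1881 library 1 and 8 with the replicate block, and 37 of the 45 fold changes were above 0. The unfolded protein response list had 3 higher calls among 31 (9.68%, against 3.47% over all genes). Of these, ERN1, the stress sensor IRE1, had 147.5, 141 and 129 CPM under R1881, against 68.6, 51.8 and 49.0 CPM under vehicle. With the block 14 members of the unfolded protein response list were higher, and 28 of the 31 fold changes were above 0. Lists without any call could lean the same way, with 39 of 49 nuclear respiratory chain and 28 of 36 ribosome biogenesis genes above 0. Of the mitochondrially encoded genes, 0 of 13 lay above 0. Whether such a lean exceeds that of genes at large was not tested. MANF (0.77 ± 0.21) and HERPUD1 (0.53 ± 0.16) lost their calls when single libraries were left out, with adjusted p-values up to 0.150 without R1881 library 3 and 0.183 without vehicle library 3. MANF lost its call with 3 of the 6 libraries left out in turn, and HERPUD1 with each of the 6.

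Some growth-related lists had calls and some had none, beside shares of 3.47% higher and 3.01% lower over all genes. Of 44 tested genes of the G1/S transition and DNA replication, 7 were higher and none lower (15.9% and 0%). In that list 41 fold changes were above 0, with a median of 0.48. CDC25A, a phosphatase that activates cyclin-dependent kinases, had 27.5, 33.3 and 30.7 CPM under R1881, against 14.9, 16.8 and 18.1 CPM under vehicle (log2 change 0.87 ± 0.19). The kinase CDK6 (2.09 ± 0.49) had 28.4, 14.7 and 12.6 CPM under R1881, against 7.78, 2.42 and 2.87 CPM under vehicle, and its call was lost without R1881 library 1 (adjusted p = 0.0618). E2F1, FEN1, GINS2 and MCM4 also lost their calls with single libraries left out, E2F1 at 0.165 without R1881 library 2, and FEN1, GINS2 and MCM4 at 0.146, 0.120 and 0.129 without vehicle library 1. GINS2 and MCM4 lost theirs with each of the 6 libraries left out in turn, E2F1 with 5 of them and FEN1 with 4. With the block 15 members of the list were higher, and without R1881 library 1 only 3. The G2/M list had 2 higher calls among 39 (5.13%), none without R1881 library 1 and 7 with the block. So few calls, at a share near that of all genes, are no result about that list. Cell cycle inhibitors were higher for 3 of 14, or 21.4% (BTG1, CDKN2B and CDKN1C, by 0.79 to 1.42 on the log2 scale), 2 of them without R1881 library 1. Each of these calls was lost with some single library left out, at adjusted p-values up to 0.0728 without vehicle library 1, 0.183 without R1881 library 1 and 0.126 without vehicle library 1. MYC and CCND1 had log2 differences of -0.07 ± 0.43 and -0.00 ± 0.13 (adjusted p = 0.973 and 0.999).

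None of 78 ribosomal protein genes, 36 ribosome biogenesis genes and 20 aminoacyl-tRNA synthetases was called, by edgeR or by DESeq2. At an unadjusted p under 0.05 there were 0, 1 and 1. The medians of the log2 changes were 0.08, 0.13 and 0.02, and 55, 28 and 11 of the fold changes were above 0.

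Among the mTOR complexes, 1 of 11 tested members was lower (9.09%, against 3.01% over all genes) and none higher. With the replicate block 1 was lower and 1 higher. DEPTOR, an inhibitory partner of mTOR, had 13.6, 12.3 and 11.3 CPM under R1881, against 18.2, 20.4 and 15.5 CPM under vehicle, a log2 change of -0.54 ± 0.16 (adjusted p = 0.03294) that did not pass without vehicle library 2 (0.198). Its call was lost with 4 of the 6 libraries left out in turn. RPTOR and RICTOR, which define mTORC1 and mTORC2, had log2 differences of 0.22 ± 0.18 and 0.02 ± 0.33. Of 38 regulators of mTORC1, SESN1, which restrains it when leucine is scarce, was the 1 call, with 143, 101 and 100.5 CPM under R1881, against 322, 231 and 257 CPM under vehicle (log2 change -1.23 ± 0.21, adjusted p = 0.0001819). That is 2.63% of the list, and with the block 3 were lower and 1 higher. TSC2 and DDIT4, other inhibitors of the pathway, had 0.24 ± 0.16 and 0.09 ± 0.39 (adjusted p = 0.508 and 0.952).

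Receptors and adaptors of the insulin and PI3K pathway, which feeds mTOR, gave 6 higher and 3 lower calls among 30 (20% and 10%). Over all genes the shares were 3.47% and 3.01%. The counts were 9 and 3 with the replicate block and 5 and 2 without R1881 library 1. IGF1R, the receptor for insulin-like growth factors, had 174, 186 and 176 CPM under R1881, against 35.6, 36.9 and 36.5 CPM under vehicle, a log2 change of 2.30 ± 0.18 (adjusted p = 9.042e-10). IRS2, the adaptor below the receptor, rose by 1.83 ± 0.28, and INPP4B, a lipid phosphatase that opposes PI3K, by 1.97 ± 0.34. GRB10 had 234, 288 and 295 CPM under R1881, against 991, 1004 and 909 CPM under vehicle (log2 change -1.83 ± 0.23), and PIK3R3, a regulatory subunit of PI3K, changed by -1.29 ± 0.17. Among amino acid transporters, 3 of 25 were higher and 2 lower (12% and 8%), and 3 and 4 with the block. So few calls are no result about that list. SLC43A1 and SLC7A8, which carry large neutral amino acids, changed by 1.16 ± 0.18 and 0.71 ± 0.17, with SLC7A8 at an adjusted p of 0.0508 without R1881 library 2. SLC7A5, the main leucine exchanger, had 3.38, 7.67 and 11.9 CPM under R1881, against 24.2, 23.3 and 22.7 CPM under vehicle, and SLC38A9, the lysosomal arginine sensor, had 24.0, 18.97 and 20.9 CPM under R1881, against 55.8, 50.8 and 52.1 CPM under vehicle. Their log2 changes were -1.61 ± 0.29 and -1.31 ± 0.16 (adjusted p = 0.0004266 and 2.852e-06).

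Several lists had shares of called members near those of all genes (3.47% higher and 3.01% lower). Lysosome and autophagy genes had 2 higher calls among 44 (4.55%), and 3 without R1881 library 1. NPC1, which exports cholesterol from lysosomes, had 193, 164 and 187 CPM under R1881, against 48.2, 39.6 and 40.1 CPM under vehicle, and WIPI1, an autophagosome factor, had 16.9, 18.5 and 19.5 CPM under R1881, against 5.13, 5.97 and 10.4 CPM under vehicle. Translation control had 1 higher call among 21, or 4.76% (EEF2K, 0.61 ± 0.16, lost without vehicle library 2 at an adjusted p of 0.0798 and without R1881 library 1 at 0.0635). In all it was lost with 5 of the 6 libraries left out in turn. ATF4 targets had 1 higher and 2 lower calls among 31 (3.23% and 6.45%), 2 and 2 with the replicate block, and 1 and 1 without R1881 library 1. The p53 targets had 1 higher and 2 lower calls among 25 (4% and 8%), and 1 and 3 with the block. Heat shock genes had 0 higher and 1 lower among 20 (0% and 5%), 3 lower with the block and none without R1881 library 1. With so few calls these counts are no result about the lists.

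Of the signalling lists, TGF-beta and BMP had 3 higher calls among 21 (14.3%) and Wnt 3 higher and 2 lower among 23 (13.0% and 8.70%). Immediate early and MAPK feedback genes had 4 higher among 26 (15.4%). Over all genes the shares were 3.47% higher and 3.01% lower, and counts as small as these are no result about a list. With the replicate block TGF-beta and BMP had 6 higher and 1 lower and Wnt 4 of each, and without R1881 library 1 TGF-beta and BMP had 2 higher. PMEPA1, a membrane protein that dampens TGF-beta signalling, had 325, 396 and 346 CPM under R1881, against 34.8, 36.6 and 31.0 CPM under vehicle (log2 change 3.38 ± 0.15, adjusted p = 1.064e-14). WNT7B, a ligand, and FZD5, a Wnt receptor, rose by 1.67 ± 0.18 and 2.19 ± 0.24, and RNF43, which removes Wnt receptors, fell by 1.29. The hypoxia list had 4 higher and 3 lower calls among 24 (16.7% and 12.5%), and 5 and 2 without R1881 library 1. In it NDRG1 had 564, 418 and 443 CPM under R1881, against 32.4, 46.9 and 24.8 CPM under vehicle. EPAS1, the hypoxia factor HIF-2 alpha, and EGLN3, an oxygen-sensing hydroxylase, changed by -1.21 ± 0.26 and -1.03 ± 0.18. The interferon list had 2 higher and 3 lower calls among 40 (5% and 7.5%), 3 and 6 with the block and 1 and 0 without R1881 library 1, and the lower calls of IFIT1, IFIT2 and MX1 were all lost without R1881 library 1 (adjusted p = 0.131, 0.0541 and 0.0933). IFIT1 and MX1 lost theirs with 5 of the 6 libraries left out in turn, and IFIT2 with 2.

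Ion pumps and channels gave 5 higher and 4 lower calls among 29 (17.2% and 13.8%), and 5 and 6 with the replicate block. KCNN2, a calcium-activated potassium channel, had 196, 215 and 236 CPM under R1881, against 37.3, 29.5 and 24.1 CPM under vehicle. ATP2B1, a calcium pump of the plasma membrane, had 189, 128 and 123 CPM under R1881, against 753, 510 and 479 CPM under vehicle (log2 change -1.99 ± 0.44, adjusted p = 0.003552). Among 25 genes of metal transport 2 were higher and 2 lower (8% each), and 1 of each without R1881 library 1. SLC30A10, a manganese exporter, had 0.427, 0.0431 and 0.428 CPM under R1881, against 4.87, 7.49 and 5.89 CPM under vehicle, and SLC40A1, the iron exporter ferroportin, changed by -1.65 ± 0.44, with an adjusted p of 0.0988 without R1881 library 1. The SLC40A1 call was lost with 5 of the 6 libraries left out in turn. In the adhesion and keratin list 3 of 28 were higher and 1 lower (10.7% and 3.57%), and 5 and 4 with the block. Beside 3.47% and 3.01% over all genes, the few calls of the metal and adhesion lists are no result about those lists. PKP1, a desmosomal plakophilin, had 1.05, 1.29 and 0.641 CPM under R1881 and 0.111, 0 and 0 CPM under vehicle, and the simple keratin KRT19 rose by 2.21 ± 0.46. KRT8 changed by 1.19 ± 0.31 and did not pass without vehicle library 1 (adjusted p = 0.0798).

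Several noncoding and T cell receptor transcripts were at or near 0 under vehicle and higher under R1881. TRGC1, a constant segment of the T cell receptor gamma locus whose androgen-driven transcript in prostate cells is known as TARP, lies at chromosome 7, 38257879 to 38265678 (hg38). It had 99.4, 59.3 and 73.9 CPM under R1881, against 0.812, 0.156 and 0.628 CPM under vehicle (log2 change 7.17 ± 0.44, adjusted p = 1.303e-11). The neighbouring constant segment TRGC2 had 3.22, 1.595 and 2.74 CPM under R1881 against 0 counts under vehicle, and the variable segment TRGV9 had 2.49, 2.76 and 2.28 CPM under R1881, against 0, 0 and 0.196 CPM under vehicle. TRGC1 and TRGC2 are similar in sequence, and CD3E, a T cell gene, had 0 counts in all 6 libraries. The antisense genes POTEH-AS1, AL512624.2 and AL929601.3 had 4.05 to 12.6 CPM under R1881 and at most 0.0780 CPM under vehicle. Whether these genes share reads that match several places was not tested, so they may not be separate observations. Whether the counting used strand is not given in the sources used here, so an antisense gene and its partner cannot be told apart. Of 19 prostate long noncoding RNAs, 4 were higher and 1 lower (21.1% and 5.26%, against 3.47% and 3.01% over all genes), and 4 and 2 with the replicate block. Without R1881 library 1 there were 2 of each, as PART1 and KLKP1 lost their calls (adjusted p = 0.0576 and 0.108), KLKP1 in all with 5 of the 6 libraries left out in turn. CTBP1-AS had 15.2, 24.1 and 24.1 CPM under R1881, against 1.88, 2.30 and 3.10 CPM under vehicle, and DRAIC had 5.24, 6.29 and 5.09 CPM under R1881, against 15.2, 17.6 and 14.9 CPM under vehicle. Among noncoding genes that fell, COLCA1 had 12.3, 14.5 and 7.16 CPM under R1881, against 166, 128 and 99.8 CPM under vehicle.

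Markers of other cell types were near 0 except for a few genes, among them FN1, VIM, VWF, COL1A1 and ENO2, and the source of these transcripts was not tested. VWF and COL3A1 were called lower under R1881 (log2 changes -1.31 ± 0.19 and -3.40 ± 0.83, adjusted p = 3.34e-05 and 0.009424). KRT14 was called higher (6.71 ± 1.57, adjusted p = 0.008335), from 38 counts under R1881 and 0 under vehicle. KRT5 and TP63, which define basal cells, had 0 counts in all 6 libraries, and the summed basal list reached 0.428 to 0.583 CPM under R1881, all but 2 counts of it KRT14, and 0 under vehicle. The immune list summed to at most 0.178 CPM under R1881 and 0.157 CPM under vehicle. The endothelial list summed to 6.10 to 11.3 CPM under R1881 and 21.8 to 26.2 CPM under vehicle, nearly all of it VWF, with CDH5 at 0. The stromal list summed to 190 to 239 CPM under R1881 and 236 to 315 CPM under vehicle, mostly FN1, with LUM, DCN and COL1A2 at 0. The neuroendocrine list summed to 10.4 to 15.1 CPM under R1881 and 11.8 to 16.7 CPM under vehicle, with INSM1 at 0. The luminal list, the lineage the line is known for, includes KLK3 and summed to 7254 to 9007 CPM under R1881 and 3339 to 3837 CPM under vehicle.

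The response of WT cells was then set against that of EV cells in an interaction test, which asks whether the change differed between the rescues. In all, 8 of 18296 genes differed (0.0437%), 6 with a more positive and 2 with a more negative change in WT cells. An unadjusted p under 0.05 was found for 706 genes (3.86%) in this fit, which has no replicate block. It leaves deviations shared by libraries of the same number in the error, so that share cannot be read against 0.05. With the replicate block 26 genes differed. IGFBP3, a carrier of insulin-like growth factors, had 9.44, 6.51 and 10.5 CPM in WT cells under R1881 and 3.39, 3.86 and 3.97 CPM in WT cells under vehicle. In EV cells it had 1.62, 3.07 and 2.69 CPM under R1881 and 4.50, 6.15 and 7.22 CPM under vehicle, so that it rose in WT cells (log2 change 1.24 ± 0.30) and fell in EV cells (-1.28 ± 0.30), with a difference of 2.51 ± 0.43 (adjusted p = 0.0142). Its call in WT cells was lost without R1881 library 3 (adjusted p = 0.0593).

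CRISPLD2, a secreted protein with a CAP domain, had 22.9, 18.0 and 19.7 CPM in WT cells under R1881 and 14.1, 14.9 and 17.1 CPM in WT cells under vehicle, a log2 difference of 0.40 ± 0.23 that did not pass (adjusted p = 0.415). In EV cells it had 34.1, 21.7 and 18.6 CPM under R1881 and 3.73, 4.02 and 4.51 CPM under vehicle, a log2 change of 2.60 ± 0.24, and the changes differed by -2.20 ± 0.33 (adjusted p = 0.007891). ACKR3 changed by -1.53 ± 0.25 in WT and -3.57 ± 0.27 in EV cells, a difference of 2.04 ± 0.35 (adjusted p = 0.0142). In EV cells it had 9.99 to 14.8 CPM under R1881 and 122 to 159 CPM under vehicle. SOCS2, an inhibitor of cytokine signalling, changed by 1.39 ± 0.19 in WT and 2.89 ± 0.20 in EV cells, a difference of -1.51 ± 0.26 (adjusted p = 0.01723). Under vehicle SOCS2 had 18.5 to 21.4 CPM in WT and 7.92 to 8.96 CPM in EV cells. Under R1881 it had 43.8 to 64.3 CPM in WT and 57.6 to 72.5 CPM in EV cells. KCNN2 changed by 2.83 ± 0.18 in WT and 1.40 ± 0.17 in EV cells, a difference of 1.43 ± 0.24 (adjusted p = 0.0142). Its level was higher in EV cells under both treatments, at 408 to 488 CPM under R1881 and 149.5 to 202 CPM under vehicle. In WT cells it had 196 to 236 CPM under R1881 and 24.1 to 37.3 CPM under vehicle. MEIS1, a homeobox partner of HOX proteins, changed by 1.88 ± 0.25 in WT and 0.07 ± 0.25 in EV cells, and BCL11B, a zinc finger factor, by 0.47 ± 0.32 in WT and -1.95 ± 0.34 in EV cells, with differences of 1.82 ± 0.35 and 2.42 ± 0.47 (adjusted p = 0.04824 for both). Of the 8, only CRISPLD2 passed under all 19 alternatives that were run, and its highest adjusted p was 0.0490. Without R1881 library 1 of WT cells, 4 genes differed, among them CRISPLD2, KCNN2 and SOCS2. Over all 12 WT and EV libraries left out in turn the count ran from 1 to 8, with a single call without WT vehicle library 3 or EV R1881 library 1.

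**Figure D5:**
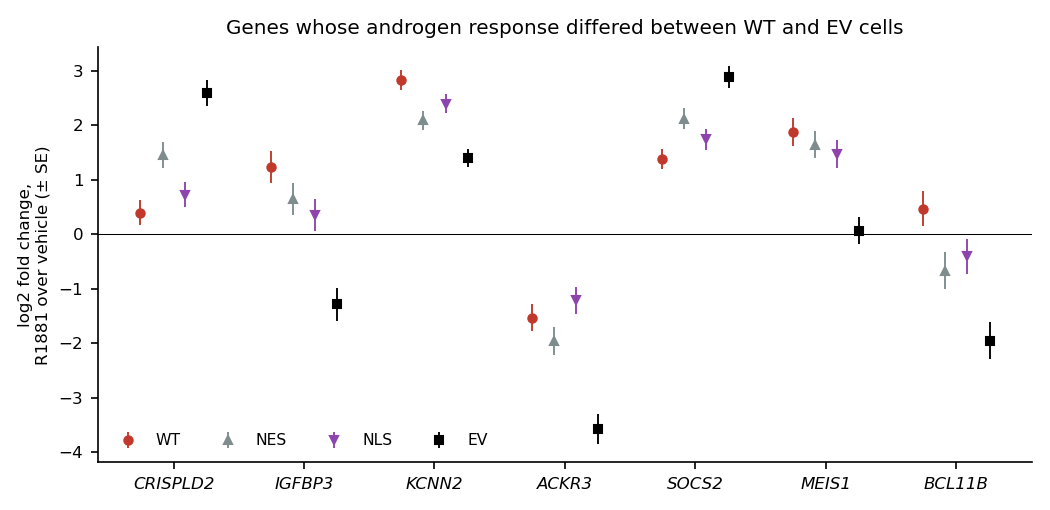
The log2 fold change of R1881 over vehicle (± SE) of 7 of the 8 genes whose response differed between WT and EV cells, in WT (red circles), NES (grey triangles), NLS (purple triangles) and EV cells (black squares). IGFBP3 lies above 0 in WT and below 0 in EV cells, and the NES and NLS values lie between those of WT and EV for all 7 genes shown, except the NLS value of ACKR3, which lies above WT at -1.21. Choosing genes for a difference between WT and EV favours such an order, so it is no separate result.

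The response of KLK3 was 2.97 ± 0.33 in WT and 1.93 ± 0.32 in EV cells on the log2 scale, and the difference of 1.04 ± 0.44 did not pass (adjusted p = 0.9999). KLK2, TMPRSS2 and FKBP5 had WT minus EV differences of 1.40 ± 0.34, 0.45 ± 0.28 and -0.77 ± 0.32, of which none passed. Between WT and NES cells 0 of 18296 genes differed (0%) by edgeR and 0 by DESeq2, and 274 genes (1.5%) had an unadjusted p under 0.05. Between WT and NLS cells 0 genes differed (0%) by edgeR and 0 by DESeq2, with 304 genes (1.66%) at an unadjusted p under 0.05 and a smallest adjusted p of 0.559. Both shares, too, come from the fit without the replicate block and cannot be read against 0.05. A p that misses the threshold does not show that the responses were alike.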

How the data were processed

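RNA from 30 libraries of LNCaP cells was sequenced, and the authors deposited raw counts and FPKM values (fragments scaled by gene length and depth) for each of 58735 genes and each library, per the file headers. The submitters' processing notes list HISAT2 2.0.5, featureCounts 1.5.0-p3 and build hg38, with no role or order.

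Counts were tested with edgeR 4.0.16 in R 4.3.3 (TMM factors, filterByExpr, quasi-likelihood F test, two-sided). One model with a mean per group was fitted to all 30 libraries, so that the groups share an estimate of spread, and 18296 genes passed the filter. Calls needed a Benjamini-Hochberg adjusted p under 0.05 over all genes of a comparison. SE is the value the F statistic implies. CPM used the filtered totals with TMM factors. FPKM was used for levels and, as log2(FPKM + 1) and log2(FPKM + 0.1), in limma 3.58.1. Scripts were tested on simulated data. Intervals from counts, and folds against a floor of 3 counts over a group, cover counting error only.

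In WT cells, deviations from the group means correlated at 0.614, 0.616 and 0.371 between libraries of the same number over 11077 genes, so the numbers were taken to pair the samples and blocked values are given where they change the call of a gene given with its value, or move a count by 1.5 times or more. EV and NES pairs also correlated above 0.1, while 1 NLS pair did not.

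Named genes were the 15 highest and 15 lowest folds among called protein-coding genes without overlap (mean CPM at least 5), the 10 largest rises and falls of mean FPKM, the 5 highest and lowest noncoding genes (mean CPM at least 1), up to 6 called members of each list, members of the transcription factor, androgen metabolism and secreted lists, and MTOR, KLK3, KLK2, TMPRSS2 and FKBP5. For the differences between lines, up to 10 called protein-coding genes in each direction were named (mean CPM at least 5). Other genes with values (SREBF1, SREBF2, MYC, CCND1, RPTOR, RICTOR, TSC2, DDIT4, SQLE, INSIG1, PRKD1, CXCR4, FAM107A, BDNF, GUCY1A1, TIPARP, CD3E and TRGV9) were chosen after their values were seen. Results of some genes that these rules name are not reported here. The genes, the 41 lists and the 6 marker lists were chosen with earlier results of these data known. Promoters were RefSeq sequences of GRCh38.p14, matched by symbol. DESeq2 1.42.0, other size factors, no filter, the groups alone and each library left out were run as alternatives.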

Additional observations from a re-analysis of the deposited data

Results flagged for a closer look

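The androgen response differed between WT and EV cells by an interaction test in 8 genes, of which 7 are given here. The WT minus EV differences in log2 change were 2.51 for IGFBP3, 2.42 for BCL11B, 2.04 for ACKR3, 1.82 for MEIS1 and 1.43 for KCNN2, and they were -1.51 for SOCS2 and -2.20 for CRISPLD2. The direction was the same in all 19 alternatives for each of the 7 genes. The call held in 19 alternatives for CRISPLD2, 12 for KCNN2, 11 each for IGFBP3 and ACKR3, 9 for SOCS2, 6 for BCL11B and 5 for MEIS1. IGFBP3 and BCL11B were at low levels, with at most 10.5 CPM in any WT or EV library. Under vehicle the WT and EV libraries overlapped for MEIS1 and BCL11B but not for the other genes. A larger fold there need not mean a higher level under R1881.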

How the results depend on the processing

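Of the WT response, 1186 genes were called, and the count was 1486 with DESeq2, 1187 with RLE size factors, 1217 with no filter, 1312 with the groups alone, and 987 and 979 with limma on log2(FPKM + 1) and log2(FPKM + 0.1). It was 2103 with the replicate block and 864 to 1026 with 1 library left out. The share of higher calls was 53.5%, and 51.5% to 58.4% over these settings. Of 189 called genes that the naming rule picked, 141 passed with each of the 6 WT libraries left out in turn and 48 did not, and none was reversed. The block and DESeq2 kept all 189. WT minus EV called 8 genes, 23 with DESeq2, 6 with RLE size factors, 24 with no filter, 2 with the groups alone, 26 with the replicate block, 25 and 6 with the limma fits, and 1 to 8 with 1 library left out. The single call remained without WT vehicle replicate 3 or without EV R1881 replicate 1. There were 2 without WT R1881 replicate 3, WT vehicle replicate 2 or EV vehicle replicate 3, and 4 without WT R1881 replicate 1, EV R1881 replicate 2 or EV vehicle replicate 1. WT minus NES called 0 genes, but 3 with no filter and 1 with limma on log2(FPKM + 1), and WT minus NLS called 0, but 15 with no filter. The cause of these shifts was not tested. At this depth a gene under about 1 CPM rests on few reads.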
